A study of Mus musculus with 8 samples.

Results

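This account follows 6 genes for receptors of the feeding circuit of the hypothalamus, out of 45706 genes in the deposited table. They are Npy1r, Npy2r and Npy5r, which encode receptors for neuropeptide Y (NPY), Mc3r and Mc4r, which encode the melanocortin receptors of the brain, and Mrap2, which encodes an accessory protein of melanocortin receptors. Their rows were found by gene symbol, a rule that uses no measured value, though the genes were proposed with earlier results of these data known. All 6 passed the filter on low counts. Their level was followed across 8 libraries of translating ribosome affinity purification (TRAP), a method that captures GFP-tagged ribosomes with antibodies to GFP and sequences the RNA bound to them.

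AgRP neurons of the arcuate nucleus drive feeding and release agouti-related peptide (AgRP), NPY and GABA. NPY receptors couple to inhibitory G proteins that lower cAMP, and the Npy2r product is known as a presynaptic receptor through which NPY neurons sense their own peptide. Melanocortin receptors couple to stimulatory G proteins that raise cAMP. They are activated by melanocortins cut from the Pomc product, and AgRP blocks them.

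All 8 libraries came from mice that were Mfffl/fl and also carried AgRP-IRES-Cretg/wt and RpL10a-GFPfl/wt, killed in the random-fed state at 11 to 12 weeks of age. Both fractions therefore carry the deletion of Mff, the gene of mitochondrial fission factor, driven by Cre at the Agrp gene, and the GFP-tagged ribosomal protein switched on by the same Cre. There were 4 libraries of ribosome-bound RNA (IP) and 4 of homogenate RNA (input), each from 3 pooled mice of mixed sex. Per the labels, input stands for hypothalamic cells and IP for those of them that express Agrp. Control-genotype libraries are not analysed here, so the values compare IP with input within the knockout and give no effect of losing Mff. Whether an IP and an input of the same number came from the same pool is not given in the sources used here.

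The depth was 44.1 to 74.6 M estimated counts in an input library and 39.9 to 64.8 M in an IP library (M, mega). The targeted gene, Mff, was at 112 to 132 counts per M (CPM) in input and at 64.0 to 71.2 CPM in IP, which is no check of the deletion, since there is no control genotype, the deletion is limited to cells with Cre while input holds RNA of all cells, and a count over the whole gene does not show which exons are gone. All 8 markers of AgRP neurons were higher in IP, as were 24.5% of all tested genes. Their summed level was 99.3 to 107 CPM in input and 3867 to 5756 CPM in IP. Markers of other cells were lower or did not pass the test in IP, but none was at 0 in every IP library. Among IP libraries, replicate 3 stood apart: its chi-square per degree of freedom against the other IP libraries was 222.5 to 329, against 47.1 to 60.2 between those others. Without IP replicate 3 the log2 fold changes of the members were 0.63 for Npy1r, 4.22 for Npy2r, 1.58 for Npy5r, 4.29 for Mc3r, -2.04 for Mc4r and 1.08 for Mrap2. No member's call changed when that library was left out.

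In the annotation GENCODE M21 of the build GRCm38, Npy1r (ENSMUSG00000036437) lies at chr8:66697192-66706792 on the plus strand and Npy5r (ENSMUSG00000044014) at chr8:66679965-66688128 on the minus strand. These neighbours point away from each other and are 9063 bases apart. Npy2r (ENSMUSG00000028004) lies at chr3:82538383-82548084 on the minus strand and has 2 exons in its longest coding transcript. Mc3r (ENSMUSG00000038537) lies at chr2:172248492-172251114 on the plus strand and has 1 exon. Mrap2 (ENSMUSG00000042761) lies at chr9:87144306-87184045 on the plus strand with 5 exons. No annotated gene overlaps any of them on either strand. Runs of 31 bases shared with transcripts of other genes made up 4.17% of the runs of Npy1r, 1.46% of those of Mrap2 and 0.424% of those of Mc3r, and there were none in the other members.

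Promoter windows of RefSeq (build GRCm38.p6, 250 bases before to 50 after a start) were found for 5 of the 6 genes, all but Mc4r. Shown here, 5′ to 3′, are the windows of the 3 members with the highest level per length in IP, so that their letters can be set beside their changes: Npy2r at chr3:82548086-82548335 on the minus strand, Mc3r at chr2:172248242-172248491 on the plus strand and Mrap2 at chr9:87144056-87144235 on the plus strand. Only the stretch before the start that holds no annotated exon is given, and that of Npy2r lies inside the gene's longer RefSeq span. Capitals mark the E-box CANNTG and, in Mrap2 alone, the NR5A site AAGGTCA, read on the other strand.
Npy2r: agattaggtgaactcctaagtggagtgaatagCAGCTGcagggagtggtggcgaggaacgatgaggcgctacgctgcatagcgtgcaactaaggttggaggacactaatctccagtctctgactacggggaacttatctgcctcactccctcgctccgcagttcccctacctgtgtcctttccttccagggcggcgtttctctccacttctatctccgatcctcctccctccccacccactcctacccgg
Mc3r: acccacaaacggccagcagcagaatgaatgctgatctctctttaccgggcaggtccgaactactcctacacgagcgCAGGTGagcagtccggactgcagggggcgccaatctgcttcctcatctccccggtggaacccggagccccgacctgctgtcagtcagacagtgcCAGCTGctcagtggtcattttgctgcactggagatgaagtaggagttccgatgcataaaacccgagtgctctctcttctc
Mrap2: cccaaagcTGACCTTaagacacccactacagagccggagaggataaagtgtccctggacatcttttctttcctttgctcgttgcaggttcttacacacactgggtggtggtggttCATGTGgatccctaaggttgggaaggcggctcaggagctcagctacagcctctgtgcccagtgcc

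On both strands of the whole windows, all 5 matched members held an E-box, as did 72.3% of 32851 RefSeq promoter windows. The NR5A site was in the window of Mrap2 and in 4.72% of all windows. The TATA box TATAAA (13.6% of all windows), the cAMP response element TGACGTCA (1.79%), the STAT site TTCNNNGAA (8.3%) and the T-box half-site GGTGTGA (3.98%) were found in none of the 5. No letters searched for were shared by Npy2r and Mc3r beyond the E-box.

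Set against input, 5 of the 6 receptor genes were higher in IP and none was lower at an adjusted p under 0.05 (edgeR quasi-likelihood test, Benjamini-Hochberg adjustment over 17000 tested genes). Of all tested genes, 24.5% were called higher and 20.9% lower in the same fit. Npy2r and Mc3r rose about 18-fold, Npy5r and Mrap2 rose by smaller steps, and Npy1r rose least. Mc4r was the only member with a lower mean in IP, and it did not pass the test. The median log2 fold change of the 6 members was 1.18, beside -0.01 over all tested genes. In bulk libraries such as these, fewer cells of a type and less RNA per cell cannot be told apart. Nor can either be told apart from a difference in ribosome binding, since IP is ribosome-bound RNA and input is homogenate RNA.

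**Figure D1:**
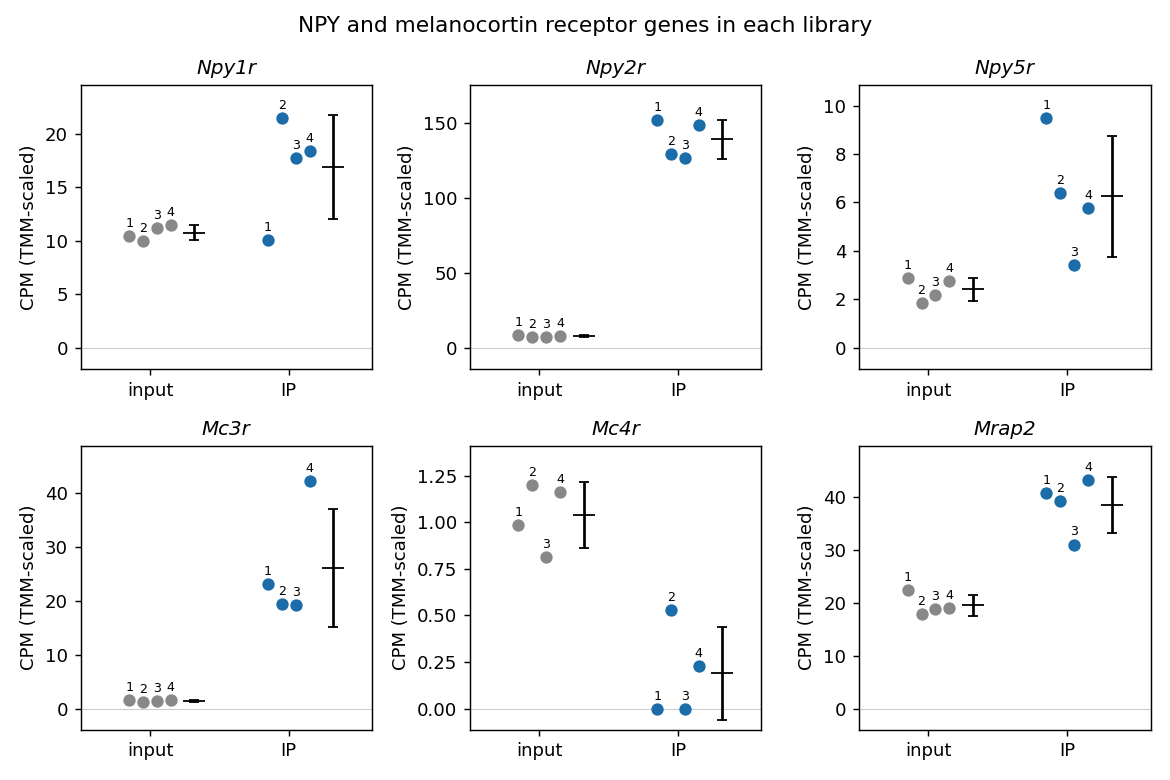
Level of each receptor gene in counts per M counts (CPM, TMM-scaled) in the 4 input (grey) and 4 IP (blue) libraries, with replicate numbers beside the points, a horizontal line at the mean and bars of 1 SD; each panel has its own axis. Npy2r is at 126 to 152 CPM in IP and 7.12 to 8.65 CPM in input, Mc4r is at 0 in IP replicates 1 and 3, and IP replicate 1 of Npy1r lies among the inputs.

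Npy2r, the autoreceptor of NPY neurons, was at 8.65, 7.12, 7.22 and 7.75 CPM in input replicates 1 to 4. In IP it was at 152, 129.5, 126 and 149 CPM. The fractions were far apart, the lowest IP library being 14.6 times the highest input. Its log2 fold change was 4.18 ± 0.10 (standard error, SE), or 18.1-fold, with an adjusted p of 4.63e-10. It ranked 33 among the 17000 tested genes by fold change. The spread between libraries was small in both fractions, with a coefficient of variation of 9.09% in input and 9.41% in IP.

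Npy1r encodes the receptor that mediates much of the feeding response to NPY in cells that receive it. It was at 10.5, 9.95, 11.2 and 11.5 CPM in input and at 10.1, 21.5, 17.7 and 18.4 CPM in IP. IP replicate 1 lay within the input range, while the other 3 IP libraries lay above every input. Its log2 fold change was 0.65 ± 0.21 with an adjusted p of 0.0228 (edgeR), and a 2-sided exact permutation test over the libraries, which can give no p below 0.0286, gave p = 0.114. The call did not hold with upper quartile scaling (0.52, adjusted p = 0.0623) or without input replicate 1 (adjusted p = 0.0555), input replicate 2 (0.0622), IP replicate 2 (0.0652) or IP replicate 4 (0.0514). Without IP replicate 1 the log2 fold change was 0.84 with an adjusted p of 0.000446.

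Npy5r, the neighbour of Npy1r, encodes a further NPY receptor linked to feeding. Input libraries were at 2.88, 1.85, 2.19 and 2.75 CPM and IP libraries at 9.48, 6.39, 3.40 and 5.76 CPM. Every IP library was above every input, as for 24.1% of tested genes. However, IP replicate 3 was only 1.18 times the highest input, and IP libraries varied by 40.0% (coefficient of variation). The log2 fold change was 1.37 ± 0.32, or 2.59-fold, with an adjusted p of 0.00456. IP replicate 1 was the highest IP library for Npy5r and the lowest for Npy1r.

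Mc3r encodes a melanocortin receptor known from AgRP neurons. It was at 1.55, 1.17, 1.47 and 1.65 CPM in input. In IP it was at 23.2, 19.5, 19.3 and 42.4 CPM. All IP libraries were at least 11.7 times the highest input, and IP replicate 4 stood well above the other 3. Its log2 fold change was 4.16 ± 0.29, or 17.9-fold, with an adjusted p of 5.94e-07 and rank 35 among tested genes. Without IP replicate 4 it was 3.83 with an adjusted p of 4.89e-07.

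The same IP replicate 4 held the highest levels of Agrp (803, 801, 683 and 1083 CPM in IP replicates 1 to 4) and of Npy (1924, 1773, 1508.5 and 2566 CPM). Set against Agrp, Mc3r had 28.8, 24.4, 28.2 and 39.1 counts for every 1000 counts of Agrp in the IP libraries, so replicate 4 was highest on this scale too. Npy2r had 189, 162, 185 and 137 counts for every 1000 of Agrp, and there replicate 4 was lowest. The part of the Agrp content in the level of Mc3r in replicate 4 was not tested.

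Mc4r encodes the melanocortin receptor best known from neurons of the paraventricular nucleus. The gene (ENSMUSG00000047259) lies at chr18:66857704-66860506 on the minus strand and has 1 exon. Its counts were 54, 89, 35 and 50 in input and 0, 28, 0 and 9 in IP. As CPM, input was at 0.983, 1.20, 0.815 and 1.16 and IP at 0, 0.529, 0 and 0.226. A count of 0 allowed up to 0.0531 CPM in IP replicate 1 and 0.0433 CPM in IP replicate 3, at 3 counts and for counting error only.

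Every IP library was below every input for Mc4r, as for 24% of tested genes. The exact 95% Poisson interval of IP replicate 2, 0.352 to 0.765 CPM, overlapped that of input replicate 3, 0.568 to 1.13 CPM. The log2 fold change was -2.47 ± 1.16 with an adjusted p of 0.107 (edgeR), so Mc4r did not pass the test, while the exact permutation test gave p = 0.0286, the smallest it can give. Mc4r was called lower with limma-voom (-4.47, adjusted p = 0.00772) and without IP replicate 2 (-3.90, adjusted p = 0.0313). At counts this low the size of the difference is poorly set.

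Markers of ventromedial and paraventricular neurons moved in the direction of the Mc4r mean. So did the summed markers of every other listed cell type but AgRP neurons. All 8 ventromedial and paraventricular markers were lower in IP, beside 20.9% of all tested genes. Their summed level was 359 to 479 CPM in input and 116 to 174 CPM in IP, and no marker was at 0 in every IP library. Sim1, a transcription factor gene of paraventricular neurons, had a log2 fold change of -2.10 ± 0.28. The part of these cells in the Mc4r values was not tested.

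Mrap2 encodes a membrane protein that binds melanocortin receptors and changes their signalling. Input libraries were at 22.4, 17.8, 18.8 and 18.9 CPM and IP libraries at 40.7, 39.2, 30.96 and 43.1 CPM. Every IP library was above every input, which held for 24.1% of tested genes. The log2 fold change was 0.98 ± 0.12, or 1.98-fold, with an adjusted p of 6.68e-05 and rank 1825. The exact permutation test gave p = 0.0286, its smallest value, for Mrap2 and likewise for Npy2r, Npy5r and Mc3r.

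**Figure D2:**
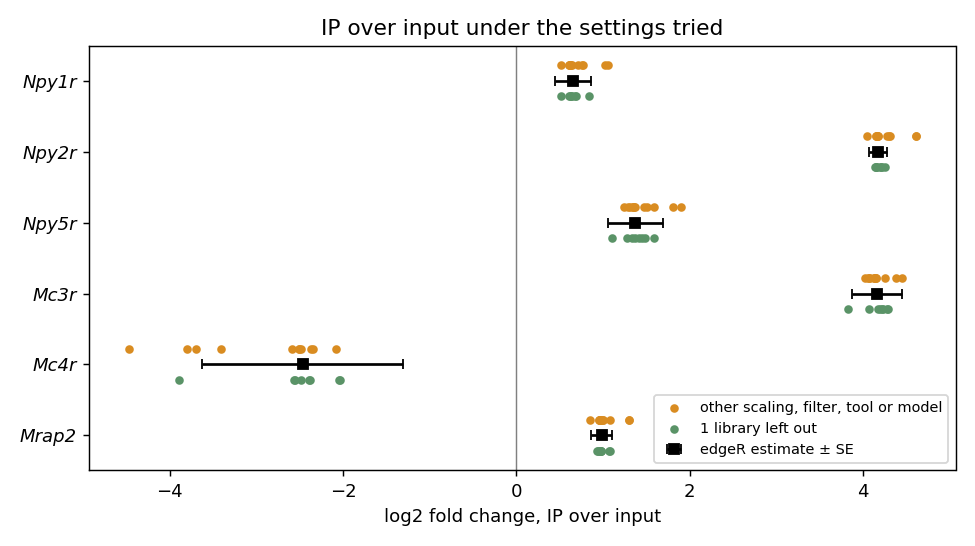
Log2 fold change of IP over input for each receptor gene. Black squares with bars give the edgeR estimate ± SE, orange points the other scalings, filters, tools and models and green points the fits without 1 library. Npy2r and Mc3r lie between 3.83 and 4.61 in all of them, Npy1r between 0.52 and 1.06, and Mc4r between -4.47 and -2.04.

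Whether members differed from each other in their change was tested on the log2 ratio of their counts within each library, for which library scaling and transcript length cancel. Of the 15 pairs compared, 11 differed between IP and input (2-sided exact permutation test, adjusted p = 0.039 over the 15 pairs). In this test each of the 11 had an unadjusted p of 0.0286, the smallest the design allows. The sign of all 15 differences was the same in each of the 8 sets that left out 1 library. The 15 pairs were made from 6 genes and are not independent. Every pair with Mc4r, which did not pass its own edgeR test, is among the 11. Single genes often had fractions that did not overlap, with IP above input for 24.1% of tested genes and below for 24%. How often pairs of other genes differ was not tested.

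Among NPY receptor genes, Npy2r changed more than both others. The log2 ratio of Npy2r over Npy5r was 1.58, 1.94, 1.72 and 1.49 in input and 4.00, 4.34, 5.21 and 4.69 in IP, a rise of 2.88 ± 0.28. The log2 ratio of Npy1r over Npy2r was 0.28, 0.48, 0.63 and 0.57 in input and -3.91, -2.59, -2.83 and -3.01 in IP, and so fell by 3.58 ± 0.30. Npy1r was thus counted more often than Npy2r in every input library and less often in every IP library. For Npy1r over Npy5r the difference was -0.70 ± 0.50 (adjusted exact p = 0.214). The IP values were 0.09, 1.75, 2.38 and 1.67, and the inputs were at 1.86 to 2.43. Only IP replicate 3 lay within the input range, and the other IP libraries lay below it.

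Npy2r and Mc3r, a receptor for each peptide system, had the smallest difference in change of the 15 pairs. Their log2 ratio was 2.48, 2.59, 2.29 and 2.22 in input and 2.72, 2.73, 2.71 and 1.81 in IP, a difference of 0.10 ± 0.24 (adjusted exact p = 0.743). IP replicate 4 was the only IP library below the inputs in this ratio, and the other IP libraries lay above every input. With 1 library left out, the difference ran from 0.02 to 0.32. A p of this size does not show that their changes were equal, and the exact test of 4 against 4 libraries has little power for small differences.

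Mrap2 changed less than Mc3r and Npy2r. The log2 ratio of Mc3r over Mrap2 was -3.85, -3.91, -3.67 and -3.51 in input and -0.81, -1.01, -0.68 and -0.03 in IP, a rise of 3.10 ± 0.23. The log2 ratio of Npy2r over Mrap2 rose by 3.20 ± 0.07. Mrap2 was not separated from Npy1r (Npy1r over Mrap2, -0.38 ± 0.29, adjusted exact p = 0.231) or Npy5r (Npy5r over Mrap2, 0.32 ± 0.25, adjusted exact p = 0.306). The sizes of the 5 pairs with Mc4r depended on the 0.5 added to each count: Mc3r over Mc4r rose by 8.36 with 0.5 added and by 7.84 with 1 added.

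Levels of different genes were compared as CPM per kb of the longest coding transcript (mean ± SD, n = 4). In input the order was Mrap2 at 9.22 ± 0.97, Npy1r at 3.59 ± 0.23, Npy2r at 2.28 ± 0.21, Npy5r at 1.04 ± 0.21, Mc3r at 0.557 ± 0.078 and Mc4r at 0.371 ± 0.063 CPM per kb. The ranges of neighbours in this order did not overlap.

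In IP the order of levels was different. Npy2r led at 41.4 ± 3.9 CPM per kb and was above all others in every library. Mrap2 at 18.2 ± 2.5 and Mc3r at 9.94 ± 4.19 followed, and their ranges overlapped. Npy1r at 5.64 ± 1.61 and Npy5r at 2.71 ± 1.08 came next, again with overlapping ranges, and Mc4r was last at 0.0674 ± 0.0895 CPM per kb. Using the mean length of coding transcripts left both orders as they were but moved Npy2r to 57.3 CPM per kb in IP and 3.17 in input.

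Within the NPY receptor genes, Npy1r held the largest share of the summed level per length in every input library and Npy2r in every IP library. Npy1r made up 47.8, 53.2, 54.6 and 52.3% in input and 6.38, 14.8, 13.1 and 11.6% in IP. Npy2r made up 35.2, 33.97, 31.5 and 31.5% in input and 85.8, 79.5, 83.6 and 83.7% in IP. Npy5r went from a mean of 14.98% to 5.37%, although its own level rose.

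Within the melanocortin receptor pair, Mc3r made up 62.7, 51.1, 65.8 and 60.3% of the summed level of Mc3r and Mc4r in input. In IP it made up 100, 97.5, 100 and 99.5%. The summed NPY receptor level was 7.00 to 8.02 times the summed melanocortin receptor level in input. In IP it was 5.97, 6.34, 6.12 and 3.25 times, replicate 4 with its high Mc3r being lowest. These shares are descriptions and were not tested.

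**Figure D3:**
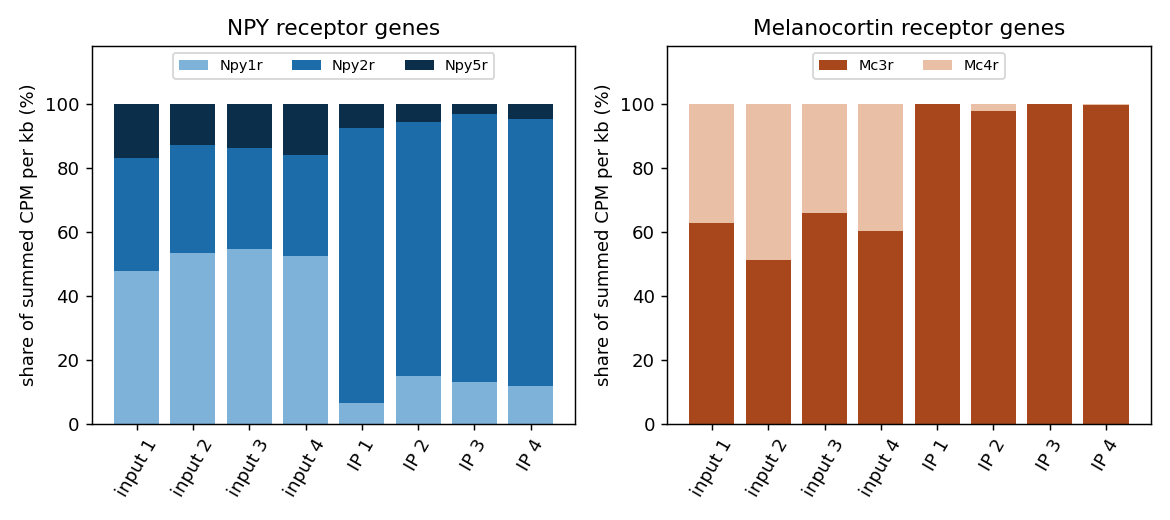
Share (%) of the summed level per length (CPM per kb) held by each NPY receptor gene (left) and by Mc3r and Mc4r (right) in each of the 8 libraries. Npy2r fills 79.5 to 85.8% of the left bars in IP, against 31.5 to 35.2% in input, and Mc3r fills 97.5 to 100% of the right bars in IP.

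Of the ligands, both peptides made by AgRP neurons were far higher in IP. Agrp was at 2.64, 3.34, 3.05 and 4.38 CPM in input, and its log2 fold change was 7.98 ± 0.20. Npy was at 13.3, 14.9, 12.97 and 13.8 CPM in input, with a log2 fold change of 7.14 ± 0.18. Pomc, the precursor of the agonists of Mc3r and Mc4r, fell by 0.93 ± 0.19 on the log2 scale (adjusted p = 0.00228). The genes of the peptides PYY and pancreatic polypeptide, Pyy and Ppy, had a count of 0 in all 8 libraries.

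The other genes of the NPY system were read at low levels. Npy4r, whose product prefers pancreatic polypeptide, had counts of 18, 23, 12 and 14 in input and 142, 26, 60 and 32 in IP. Its log2 fold change was 1.90 ± 0.62 (adjusted p = 0.0276), a call that did not hold with limma-voom (adjusted p = 0.0639) or without IP replicate 1 (1.21, adjusted p = 0.082) or any of the 4 inputs. Npy6r, another receptor gene, had 11 to 15 counts in each input and 0 in each IP library. It was below the filter and was not tested. Its mean in input, 0.246 CPM, was 3.26 times the highest floor of an IP library, 0.0754 CPM at 3 counts. Dpp4, which encodes a peptidase that trims NPY, was at -1.89 ± 0.80 (adjusted p = 0.0754), and without IP replicate 3 it was called lower (-2.51, adjusted p = 0.0245). Of the 6 listed genes 3 were tested, 2 were higher and none was lower, beside 24.5% higher and 20.9% lower over all tested genes.

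Of 16 listed melanocortin genes, 11 were tested, with a median log2 fold change of -0.20. In IP 4 were higher and 4 lower, beside 24.5% higher and 20.9% lower over all tested genes. The higher genes were Agrp, Pcsk1 (1.16 ± 0.11), which encodes a convertase that cuts peptide precursors, Pam (0.83 ± 0.10), which encodes the enzyme that amidates peptides, and Sdc3 (0.35 ± 0.07), which encodes a proteoglycan linked to AgRP action. The lower genes were Pomc, Cpe (-0.74 ± 0.07), which encodes the carboxypeptidase of peptide processing, Atrnl1 (-1.59 ± 0.13) and Atrn (-0.34 ± 0.08), which encodes attractin and had a positive value, 0.16, under offsets for GC content and length that were not centred. The remaining receptor genes Mc1r and Mc5r had at most 8 counts in any library and Mc2r none.

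Downstream of the receptors, 14 of 25 listed G protein and cAMP genes were higher in IP and 7 lower, with a median log2 fold change of 0.30; of the lower ones Creb1 turned positive under the GC and length offsets, and Gnai1 and Gnai3 did so when these were not centred. The background was 24.5% higher and 20.9% lower, and the share of lower genes was near it. The inhibitory G protein gene Gnai2 rose by 1.33 ± 0.06, the stimulatory Gnas by 0.59 ± 0.07. Prkar2b, a regulatory subunit gene of protein kinase A, rose by 1.78 ± 0.11 and the catalytic Prkaca by 0.92 ± 0.08. Genes of adenylyl cyclases, the enzymes that make cAMP, split: Adcy6 rose by 1.02 ± 0.15 and Adcy5 by 0.55 ± 0.08, while Adcy1 fell by 2.33 ± 0.35, Adcy8 fell by 2.29 ± 0.29 and Adcy7 fell by 1.67 ± 0.45.

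Of the 11 listed genes for channels and desensitisation, 7 were higher and 1 lower, with a median of 0.43. The same fit called 24.5% of its 17000 genes higher and 20.9% lower. Among the 7, Arrb2 (0.43) and Kcnj9 (0.28) did not keep their calls in every setting. Both lost them with upper quartile scaling (adjusted p = 0.112 and 0.205, edgeR), without input replicate 1 and in further settings. Kcnj5 and Kcnj3, which encode subunits of potassium channels opened by inhibitory G proteins, rose by 2.64 ± 0.13 and 0.74 ± 0.09. Cacna1b, the gene of N-type calcium channels, rose by 0.72 ± 0.12. The kinase gene Adrbk2 rose by 0.50 ± 0.08 and the arrestin gene Arrb1 fell by 1.52 ± 0.16. Kcnj13 was at -2.90 ± 1.37 (adjusted p = 0.108), with counts of 0 in all IP libraries but replicate 2. It was called lower with limma-voom (-5.47, adjusted p = 0.00374) and without IP replicate 2, where all IP libraries left are at 0 (adjusted p = 0.00038) and the fitted size has no meaning.

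**Figure D4:**
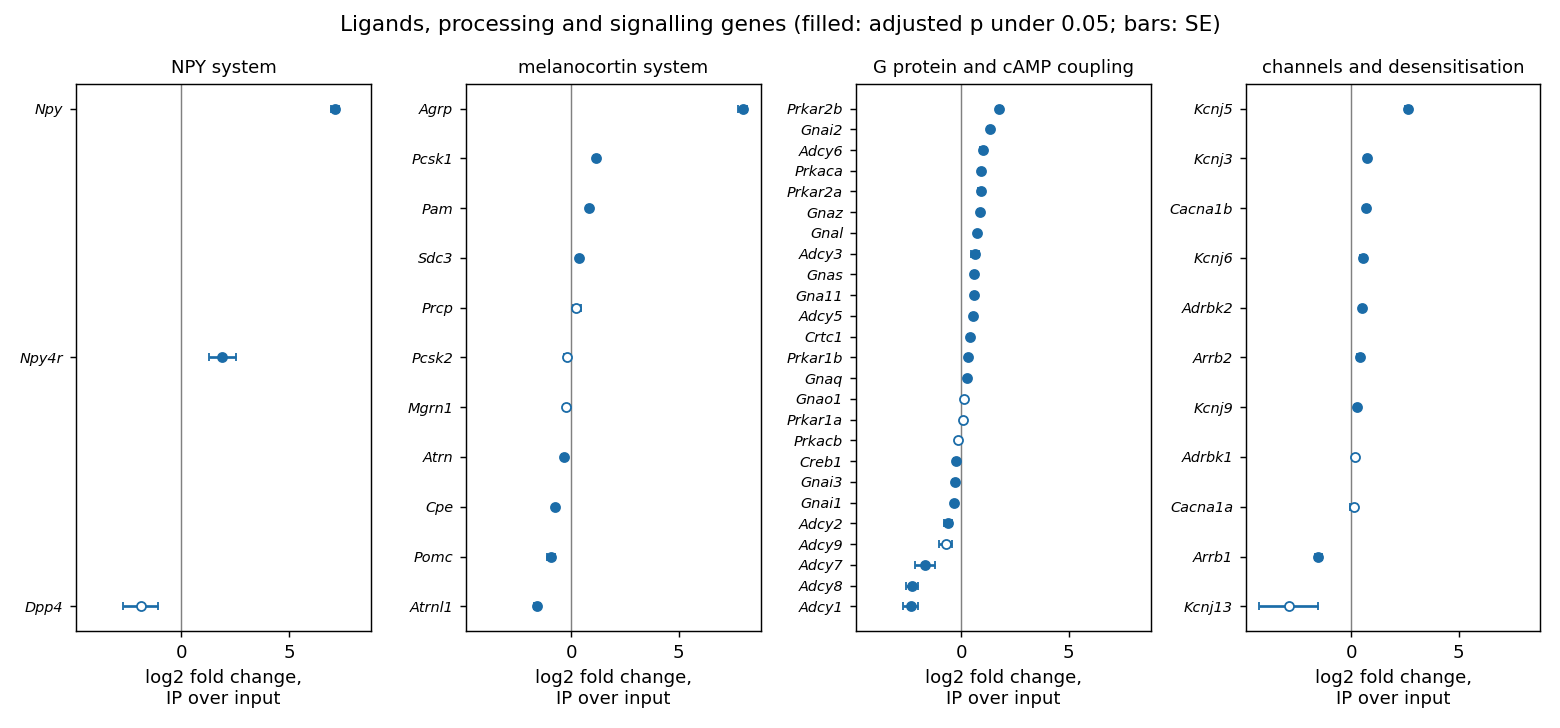
Log2 fold change of IP over input (edgeR, bars are SE) for the tested genes of the 4 lists on ligands, peptide processing and receptor signalling; filled points have an adjusted p under 0.05 and open points do not. Agrp and Npy lie at 7.98 and 7.14, and most other genes lie between -2.5 and 2.7.

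Beside the rise of the members, markers of other cells were counted in the same fit. Lower in IP were 6 of 8 markers of other arcuate neurons (summed 177 to 222 CPM in input and 87.4 to 119 in IP), 6 of 6 of astrocytes (2531 to 3156 and 766 to 1021 CPM), 6 of 6 of oligodendrocytes (1626 to 2069 and 459 to 652 CPM) and 3 of 3 of their precursors (98.4 to 114 and 21.8 to 36.4 CPM). Microglia had 5 of 6 lower (40.8 to 51.9 and 11.7 to 17.1 CPM), vascular cells 2 of 5 (30.99 to 38.0 and 9.96 to 28.9 CPM) and tanycytes and ependyma 4 of 5 (33.3 to 42.1 and 9.87 to 15.8 CPM). No marker of these lists passed the test as higher. In the same fit 20.9% of all tested genes were lower. Their part in the receptor values was not tested.

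For each member, the 3 tested genes nearest in pattern were taken by the root mean square difference of log2 CPM, centred on each gene's mean over the 8 libraries, among 12503 eligible genes. Npy2r was nearest to Tbx3 (0.146) and Nr5a2 (0.146), both transcription factor genes, and to Otp (0.176), a homeobox gene. Mc3r was nearest to Tgfbi (0.267), Nr5a2 (0.290) and Ghr (0.292), the growth hormone receptor gene. Nr5a2, at 1.96 CPM in input and 38.6 CPM in IP, was thus near both.

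Members with smaller changes had other neighbours. Mrap2 lay within 0.0803 of Smim19, Snrnp70 and Mrpl32, Npy1r within 0.136 of Ccdc97, Tmem160 and Capn10, and Npy5r within 0.216 of Htatip2, Saxo2 and Scamp4. Mc4r was nearest to Grin2c (0.385), an NMDA receptor subunit gene, Inpp5d (0.462) and Evc2 (0.473), the largest distances of any member. Eligible genes needed a mean of at least 1 CPM, while Mc4r was at 1.04 CPM in input and 0.189 CPM in IP. Genes at its own level were therefore left out. The distances of all members describe 8 libraries that fall into 2 fractions, so genes with a like fold change come out near each other.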

How the data were processed

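The authors deposited estimated counts per gene, not normalized, for 8 libraries. The submitters' processing notes name Salmon 0.14.1 and GRCm38.p6. The sources used here do not give the annotation release, the trimming or whether strand was used. Salmon assigns reads shared by transcripts with a model, so counts of genes with shared sequence are uncertain.

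Estimated counts were rounded and tested with edgeR 4.0.16 (R 4.3.3): filterByExpr (minimum count 10) kept 17000 of 45706 genes, TMM factors scaled the libraries, and the quasi-likelihood test compared IP with input, without covariates. P-values were adjusted over all tested genes (Benjamini-Hochberg, threshold 0.05). SE was taken as the size of the log2 fold change over the square root of its F statistic. CPM are TMM-scaled and relative to the library, not to cells. Totals of 39.9 to 74.6 M bound the precision, and intervals cover counting error only. P-values rest on the spread between libraries of a fraction, in which differences between pools of mice and between preparations cannot be told apart. The code of the fit was tested on simulated data in which most genes did not change, so that test does not bear on the scaling here.

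Single values and ratios of members were compared by 2-sided exact permutation over libraries (70 arrangements; the smaller tail doubled). Alternatives were other scalings (RLE, upper quartile, library totals), filters, DESeq2 1.42.0, limma-voom (limma 3.58.1), a replicate block, GC and length offsets and leaving out each library. The exact test of single members, the settings for pathway genes and the centring of the offsets were chosen after seeing the data. The offsets were first fitted without centring; both forms are given.

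The members and lists were chosen with earlier results of these data known. Named are the 6 members, any gene of 4 pathway lists and 9 marker lists, and the 3 tested genes nearest in pattern to each member (mean of at least 1 CPM, no predicted gene). Mff is named as the targeted gene.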

Additional observations from a re-analysis of the deposited data

Results flagged for a closer look

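Of 130 groups of 4 libraries checked (members, pathway genes and summed markers in each fraction), 5 had a library far from the other 3, where chance gives about 1 in 20 groups. For Mc3r in IP, replicate 4 was at 42.4 CPM and the others at 19.3 to 23.2 CPM. Kcnj13 in IP was at 0.661 CPM in replicate 2 and at 0 in the others. Prkar1b in IP was at 438.6 CPM in replicate 3 and at 540.2 to 546 CPM in the others. Atrnl1 in input was at 41.8 CPM in replicate 4 and at 34.6 to 35.6 CPM in the others. The summed vascular markers in IP were at 28.9 CPM in replicate 3 and at 9.96 to 12.2 CPM in the others.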

How the results depend on the processing

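Npy2r, Npy5r, Mc3r and Mrap2 were called higher in every setting run, at log2 fold changes of 4.04 to 4.61, 1.104 to 1.90, 3.83 to 4.45 and 0.85 to 1.30. Npy1r was positive throughout and lost its call with upper quartile scaling (0.52), in the exact permutation of log2 CPM (0.60) and without input replicates 1 or 2 or IP replicates 2 or 4. Over all 8 fits without 1 library it ran from 0.52 to 0.84, the highest being a fit that kept the call. Mc4r was negative throughout and passed with limma-voom (-4.47), the replicate block (-3.81) and in the exact permutation (-2.41). Without 1 library it ran from -3.90 to -2.04 and passed only without IP replicate 2 (-3.90, edgeR adjusted p = 0.0313). The members called lower were thus 0 or 1, and 1 with limma-voom, with the block and without IP replicate 2. The filter of 1 CPM in 4 libraries removed Mc4r and gave no value for it.

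Upper quartile scaling shifted the median of all genes by -0.13 and library totals by 0.10. Offsets for GC content and length that were not centred shifted it by 0.30 and changed the calls over all genes from 4171 higher and 3545 lower to 6508 and 2213 (lower with the block 2345). Centring, chosen after this was seen, gave 4167 and 3268. Not centred, without and with the block, these genes turned positive: Atrn (0.16, 0.15), Creb1 (0.51, 0.50), Gnai1 (0.12, 0.12), Gnai3 (0.20, 0.20), Mgrn1 (0.064, 0.040), Pcsk2 (0.22, 0.20) and Prkacb (0.27, 0.26). With centred offsets Creb1 (0.21, 0.20) and Tmem160 (-0.10, -0.13) changed sign, and with upper quartile scaling Cacna1a (-0.011) and Prkar1a (-0.036) did. Calls of Adcy2, Arrb2, Atrn, Capn10, Creb1, Gnai1, Gnai3, Gnaq, Inpp5d, Kcnj9, Npy4r and Prkar1b were lost in at least 1 setting, and calls of Adcy9, Adrbk1, Cacna1a, Dpp4, Evc2, Gnao1, Kcnj13, Mgrn1, Pcsk2, Prcp, Prkacb, Prkar1a and Tmem160 were gained. Prkacb was called lower with upper quartile scaling (-0.26) and higher with offsets that were not centred.

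Of the 15 pairs of members, 11 passed with all libraries and 0 without any 1 library, where 3 against 4 allow no p below 0.0571. The replicate block also gave 0, since sign flips in 4 pairs allow no p below 0.125. With absolute differences in place of the doubled tail, the form run first, 11 pairs passed with all libraries, 11 or 12 without an IP library and 0 without an input library. The mean coding length moved Npy2r to 57.3 CPM per kb in IP and 3.17 in input, and Npy5r to 1.25 in input.

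Replicate numbers were not taken as pairs: same-number deviations correlated at 0.048 to 0.084 and others at -0.038 to -0.002, so every library was closest to its own number. The block left 3878 genes higher and 3714 lower and changed no call of a member other than Mc4r. With the block Npy4r lost its call (1.62, adjusted p = 0.105), as did Gnai3 (-0.28, adjusted p = 0.0732), and Kcnj13 was called lower (-5.61, adjusted p = 0.0152). Low counts limit Mc4r and Npy4r. P-values rest on 4 pools a fraction.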
